A study of Homo sapiens with 2 samples.

Results

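The S100 genes encode small calcium-binding proteins, and 10 of them (S100A2, S100A4, S100A6, S100A7, S100A8, S100A9, S100A10, S100A11, S100A14 and S100P) were followed here in FaDu cells that overexpress the glucose transporter GLUT4. They were taken by name, as every probe set that the platform annotation assigns to just 1 of these genes, which gave 13 of 54675 probe sets and 10 of 19775 genes. FaDu is an established line from a squamous carcinoma of the human pharynx. The GLUT4 group carried the GLUT4 sequence and the vector control group the control vector, each introduced by lentivirus, and both had been selected with puromycin for 2 weeks. Each group was 1 array of total RNA from stably transduced cells, so no value has a replicate and no test was possible. The methods speak of stable clones, and whether each group was a pool or a single clone is not given. A difference between the arrays covers every way in which the cells of the 2 groups differed. SLC2A4, the gene of GLUT4, read 32.6 on the GLUT4 array and 28.3 on the vector control array, both below the median of all probe sets, and whether its probe set detects the introduced sequence was not determined.

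S100 proteins are built from a pair of EF-hands, the helix-loop-helix motif that binds calcium, and most work as dimers that expose a binding surface for a target protein when calcium rises. S100A10 is the exception that no longer responds to calcium. Most of the family lies in a cluster on the long arm of chromosome 1, inside the epidermal differentiation complex, next to the genes of the cornified envelope of stratified epithelium. Inside keratinocytes the proteins act on annexins, the cytoskeleton and transcription factors, and several of them, above all S100A7 (psoriasin), S100A8 and S100A9, are also released as antimicrobial and inflammatory signals. S100A8 and S100A9 pair to form calprotectin, which starves microbes of zinc and manganese.

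The promoter windows of 4 members are shown because they hold the pair that forms calprotectin (S100A9 and S100A8), the other member past 1.5-fold (S100A4) and the member with the largest difference on the higher side (S100A2). They come from RefSeq on GRCh38.p14 and run from 250 bases before to 50 bases after an annotated transcript start, read 5′ to 3′ on the strand of the gene. Capitals mark TATAAA, the core of the TATA box, and TGANTCA, the site of AP-1 factors, on either strand. S100A8 has 3 overlapping windows, of which the middle is shown, and S100A2 has 2, of which the one shown is the more upstream.
S100A9, chr1:153357604-153357903, plus strand: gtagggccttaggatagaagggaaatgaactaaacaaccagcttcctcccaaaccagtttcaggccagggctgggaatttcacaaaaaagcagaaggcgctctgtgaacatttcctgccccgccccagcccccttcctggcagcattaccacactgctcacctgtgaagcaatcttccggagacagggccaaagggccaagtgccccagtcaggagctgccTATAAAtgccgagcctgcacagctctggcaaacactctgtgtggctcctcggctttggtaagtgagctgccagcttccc
S100A4, chr1:153545757-153546056, minus strand: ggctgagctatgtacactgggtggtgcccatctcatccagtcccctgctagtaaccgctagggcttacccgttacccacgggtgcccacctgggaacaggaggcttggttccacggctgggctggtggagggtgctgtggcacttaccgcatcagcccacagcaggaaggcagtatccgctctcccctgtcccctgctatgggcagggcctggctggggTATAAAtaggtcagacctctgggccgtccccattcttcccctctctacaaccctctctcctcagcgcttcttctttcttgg
S100A8, chr1:153391024-153391323, minus strand: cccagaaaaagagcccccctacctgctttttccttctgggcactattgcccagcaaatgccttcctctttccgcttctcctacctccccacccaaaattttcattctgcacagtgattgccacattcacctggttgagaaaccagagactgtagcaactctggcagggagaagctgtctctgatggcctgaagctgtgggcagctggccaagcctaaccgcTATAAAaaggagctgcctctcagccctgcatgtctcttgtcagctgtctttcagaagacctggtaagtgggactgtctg
S100A2, chr1:153565795-153566094, minus strand: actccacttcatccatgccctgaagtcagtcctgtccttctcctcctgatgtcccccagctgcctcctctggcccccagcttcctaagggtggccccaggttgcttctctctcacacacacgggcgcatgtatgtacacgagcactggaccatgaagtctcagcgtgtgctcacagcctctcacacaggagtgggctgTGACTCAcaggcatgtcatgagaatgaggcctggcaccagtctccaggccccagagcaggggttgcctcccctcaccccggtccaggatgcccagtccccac
All 10 members had a window. TATAAA began 29 bases before the start in S100A9, 31 in S100A4 and 29 in the S100A8 window shown, and also lay 28 bases before the start in S100A7 and S100P. S100A2, S100A6, S100A10, S100A11 and S100A14 held none, by these exact letters. The windows of S100A6 and S100A14 did hold TATAAG, which differs in the last letter and was not counted. Of 35097 windows of this length in the table, 11.5% held TATAAA and 7.71% held TGANTCA, which among the members was in the S100A2 window shown. TTCNNNGAA, the core of STAT sites, was in none of the members' windows, and TTGCNNAA, a form of the C/EBP site, was in that of S100A11, against 7.66% and 10.5% of all windows. None of these matches overlapped in the members. A match of letters is a description of the window and no measure of binding.

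**Figure D1:**
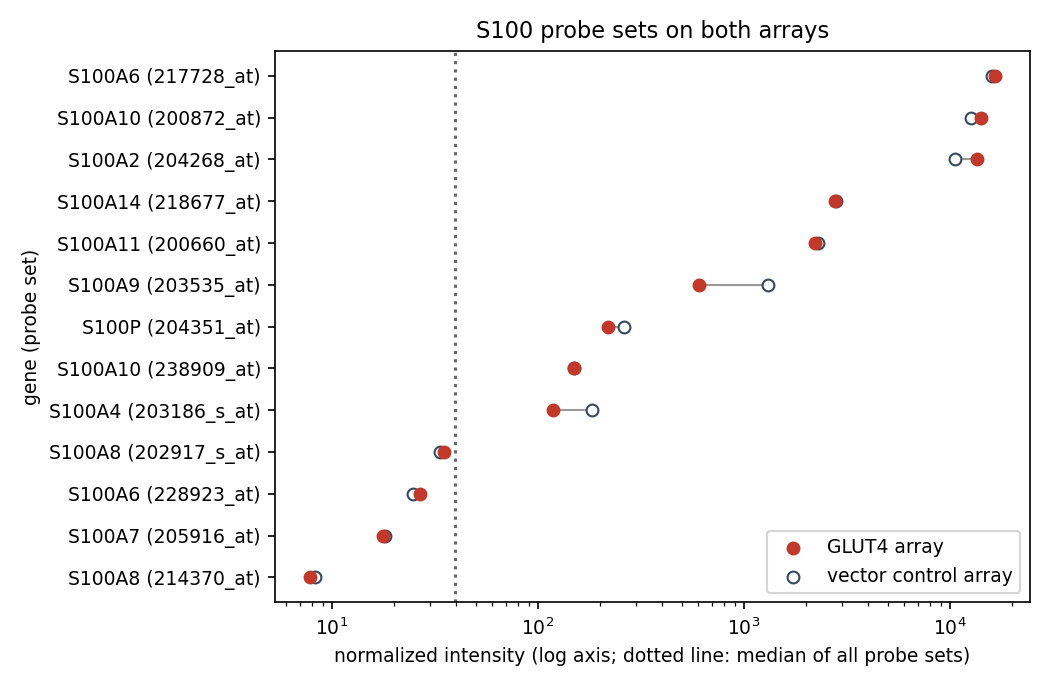
Normalized intensity (horizontal log axis) of the 13 S100 probe sets on the GLUT4 array (filled red points) and the vector control array (open points), 1 array each, with a dotted line at the median of all probe sets, 39.3. S100A9 shows the widest gap, at 605 with GLUT4 and 1307 with vector, followed by S100A4, at 118 and 182.

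S100A9, the larger subunit of calprotectin, was the member that differed most. Its probe set read 605 in GLUT4 cells and 1307 in vector control cells, a log2 difference of -1.11 (GLUT4 minus vector control), or 2.16-fold lower. Counted from the most lowered, it stood at rank 42 of the 19775 genes, each taken at its main probe set (the one with the highest mean log2 intensity), and at rank 37 of the 12940 genes whose mean intensity lay above the median. The data hold 1 partial measure of technical error, how far probe sets that detect the same gene lie apart. In the 10523 genes that have 2 or more, the gap between the log2 differences of the 2 brightest had an SD of 0.29, which is 0.20 for 1 probe set. In the 1452 genes with both above an intensity of 500, the SD was 0.12 for 1 probe set. Variation between cultures is not part of this SD. Error that both probe sets share, as from the RNA, labelling or hybridization of an array, is not part of it either. S100A9 has 1 probe set, so no further probe set stands beside it.

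S100A8, which pairs with S100A9, read 34.9 in GLUT4 cells and 33.4 in vector control cells, a log2 difference of 0.06. Its other probe set read 7.80 in GLUT4 cells and 8.29 in vector control cells (-0.09). All 4 values lay below the median of their arrays, which was 39.1 for GLUT4 and 39.7 for vector control. S100A12, the granulocyte S100 protein whose gene lies between those of S100A9 and S100A8, read 13.7 in GLUT4 cells and 13.5 in vector control cells (0.02). Of these 3 genes, S100A9 alone was past 1.5-fold and S100A9 alone had a signal above the median.

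S100A8 and S100A9 are abundant in neutrophils and monocytes, so markers of these cells were read on the same arrays. Of 14 such markers 13 were measured, and their summed intensity was 481 in GLUT4 cells and 628 in vector control cells. The median of their differences was -0.17, with 8 below 0 and 5 above it. CD14, the endotoxin co-receptor, was the member of this list past 1.5-fold by main probe set, at 143 in GLUT4 cells and 251 in vector control cells (-0.81). It was the brightest of the list on both arrays and so weighs most in the sums. PTPRC, the pan-leukocyte marker CD45, read 8.14 in GLUT4 cells and 8.30 in vector control cells, and 7 of the 13 lay below the median of all probe sets on both arrays, among them LYZ, TYROBP, FCGR3B and MPO. Another 5 lay above it on both arrays, CD14, ITGB2, CSF3R, AIF1 and CSF1R, and ITGAM lay above it with vector control only. ITGB2 read 56.0 in GLUT4 cells and 75.0 in vector control cells on its main probe set (-0.42). Its other probe sets were at 0.23 and, with 28.5 in GLUT4 cells and 68.9 in vector control cells, at -1.27. The part of such cells in the S100A9 value was not tested.

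S100A4, also known as metastasin, binds nonmuscle myosin and is linked to cell motility. Its probe set read 118 in GLUT4 cells and 182 in vector control cells, a log2 difference of -0.63, or 1.54-fold lower. This lies just past 1.5-fold, at a log2 difference of 0.58, and with an offset of 32 on each intensity, which shrinks differences between dim values, it came to 1.43-fold lower, within the threshold. Among genes with both probe sets above the median, the SD of 1 probe set was 0.19. MYH9, the heavy chain of nonmuscle myosin that S100A4 binds, read 397 in GLUT4 cells and 364 in vector control cells (0.12). S100A4 is also a marker of fibroblasts, and the 9 fibroblast markers measured had a summed intensity of 2029 in GLUT4 cells and 1627 in vector control cells. Of these, the proteoglycans DCN and LUM were past 1.5-fold on the higher side by main probe set, with DCN at 1050.1 in GLUT4 cells and 482 in vector control cells (1.12) and LUM at 79.9 in GLUT4 cells and 38.5 in vector control cells (1.05). The other LUM probe set read 10.4 in GLUT4 cells and 8.32 in vector control cells (0.32, within 1.5-fold). Without DCN, the brightest of the list on the GLUT4 array, the sum of the other 8 was 979 in GLUT4 cells and 1146 in vector control cells. FAP, a membrane protease of activated fibroblasts, read 492 in GLUT4 cells and 709 in vector control cells (-0.53, within 1.5-fold), and COL1A1, a defining collagen chain, read 226 in GLUT4 cells and 224 in vector control cells on its main probe set (0.01). The dimmer COL1A1 probe sets were at -0.12, 1.07, -0.05 and -0.11. The one at 1.07 read 34.2 in GLUT4 cells and 16.3 in vector control cells, so the COL1A1 probe sets differ. The other 5 markers were within 1.5-fold. The part of these genes in the S100A4 value was not tested.

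S100P, a family member that lies on chromosome 4 and binds the membrane linker ezrin, read 218 in GLUT4 cells and 262 in vector control cells. The log2 difference was -0.26, or 1.20-fold lower, within 1.5-fold. The ezrin gene EZR read 4670 in GLUT4 cells and 4617 in vector control cells (0.02).

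S100A2, a protein of basal keratinocytes that binds p53, had the largest difference on the higher side. Its probe set read 13459 in GLUT4 cells and 10565 in vector control cells, a log2 difference of 0.35, or 1.27-fold higher. This was within 1.5-fold and 1.71 times the SD of 1 probe set over all genes, 0.20. Among genes with both probe sets above 500, a group that holds genes dimmer and brighter than S100A2, that SD was smaller, 0.12. In the squamous markers, all 8 measured of 11 lay above the median on both arrays. KRT14 and KRT5, the keratin pair of basal cells, read 3985 and 13093 in GLUT4 cells, against 1963 and 11024 in vector control cells, so that KRT14 was past 1.5-fold (1.02) and KRT5 within it (0.25). EPCAM, an epithelial adhesion molecule, was past 1.5-fold on the lower side, at 3020.5 in GLUT4 cells and 5361 in vector control cells (-0.83). Next in size were CDH1 (-0.54) and DSC3 (0.53), both within 1.5-fold on their main probe sets.

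**Figure D2:**
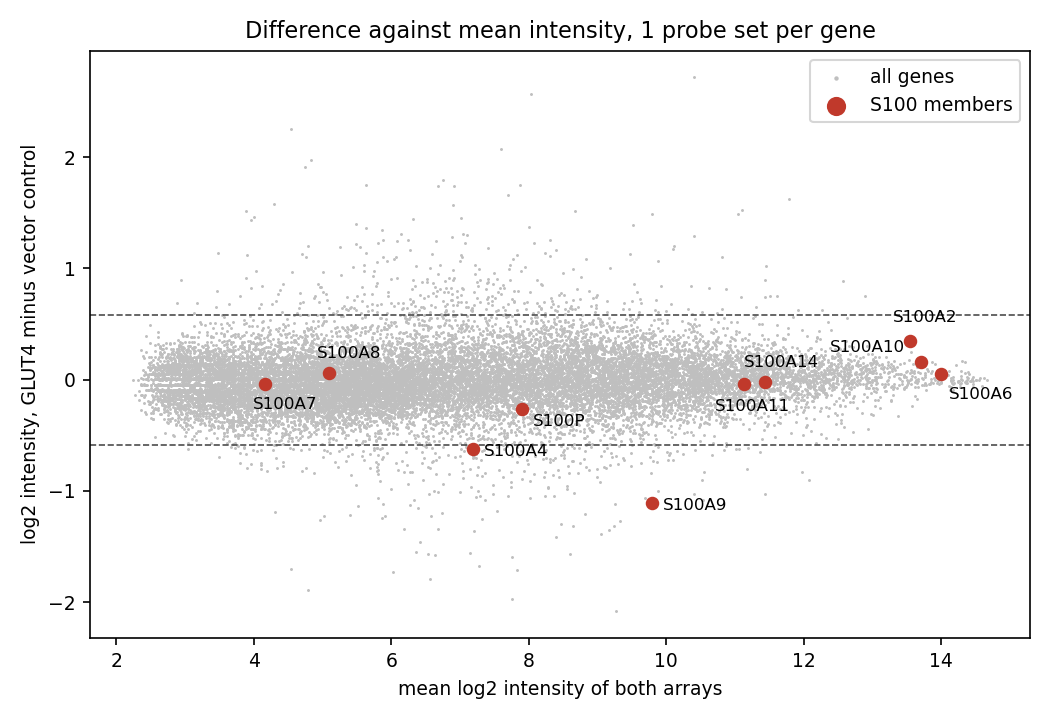
GLUT4 minus vector control in log2 intensity (vertical axis) against the mean of the 2 log2 intensities (horizontal axis), with all 19775 genes in grey, the 10 S100 members in red and dashed lines at 1.5-fold. S100A9 at -1.11 and S100A4 at -0.63 lie below the lower line, and the other 8 lie between -0.26 and 0.35.

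The annexin-binding members were at similar values on both arrays. S100A10 (p11), which joins annexin A2 in a tetramer at the cell membrane, read 14104 in GLUT4 cells and 12662 in vector control cells (0.16), and 149 in GLUT4 cells and 150 in vector control cells on its dimmer probe set (-0.01). Its partner ANXA2 had a log2 difference of 0.06 on the main probe set, at 21344 in GLUT4 cells and 20495 in vector control cells, and of 0.05, 0.06 and 0.14 on the others. AHNAK, a giant scaffold protein held at the membrane by that complex, was at 0.46 on the main probe set (2125.0 in GLUT4 cells and 1544 in vector control cells) and at 0.45 on the next (560 in GLUT4 cells and 411 in vector control cells), both within 1.5-fold. Its 3 dimmer probe sets, below the median on both arrays, were at -0.05, -0.13 and 0.06. S100A11, which binds annexin A1 and takes part in keratinocyte growth control, read 2216 in GLUT4 cells and 2280 in vector control cells (-0.04). ANXA1 itself read 9130 in GLUT4 cells and 9519 in vector control cells (-0.06).

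S100A6 (calcyclin), a protein of dividing cells, read 16582 in GLUT4 cells and 15966 in vector control cells (0.05), and 26.6 in GLUT4 cells and 24.6 in vector control cells on its dim probe set (0.11). Its binding protein CACYBP had differences of -0.20, 0.04, 0.08 and 0.11 on its 4 probe sets, brightest first. S100A14, found at the borders of epithelial cells, read 2753 in GLUT4 cells and 2789 in vector control cells (-0.02), and with both arrays divided by their medians this came to 0.00 on the other side of zero. S100A7, psoriasin, read 17.6 in GLUT4 cells and 18.2 in vector control cells (-0.04), below the median on both arrays. Each of these members differed by less than the SD of 1 probe set. For the 3 members with 2 probe sets, the differences of the pair lay 0.06 (S100A6), 0.15 (S100A8) and 0.16 (S100A10) apart.

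Over all 10 members, 2 were more than 1.5-fold lower with GLUT4, where 1.54% of the 19775 genes were, and none was more than 1.5-fold higher, where 1.84% of genes were. Past 2-fold, 1 member was lower, against 0.314% of genes. Among the 12940 genes above the median intensity, 1.99% were more than 1.5-fold lower, as were 2 of the 8 members there. By probe set, 2 of 13 were more than 1.5-fold lower, against 1.22% of all probe sets. The median of the members was -0.03 and that of all genes -0.02. The members past the threshold were S100A9 and S100A4. By the SD of 1 probe set over all genes (0.20), 6 members differed by less and 4 by more, S100A9, S100A4, S100A2 and S100P, where 32.7% of all genes differed by more. S100A10, at 0.16 on its main probe set, was under this SD but over the 0.12 of genes with both probe sets above 500. On the main probe sets 8 of 10 lay above the median of their arrays with both constructs, and S100A7 and S100A8 lay below it with both. The members past 1.5-fold were both among the 5 genes whose windows held TATAAA, whose differences ran from -1.11 to 0.06, while those of the other 5 genes ran from -0.04 to 0.35. The motifs were chosen after these values were known, and the share of all genes with TATAAA that lay past 1.5-fold is not given here. Of the 5 with TATAAA, S100A7 and S100A8 lay below the median on both arrays. Of the 5 without it, S100A6 (0.05) and S100A14 (-0.02) held the near form TATAAG, so the split rests on the exact letters. A link between the motif and the difference was not tested.

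The 10 other S100 genes measured (S100A1, S100A3, S100A5, S100A7A, S100A12, S100A13, S100A16, S100B, S100G and S100Z) all stayed inside 1.5-fold by main probe set, with differences from -0.06 to 0.28 and a median of 0.07. S100A16, a widely expressed member, read 5455 in GLUT4 cells and 5701 in vector control cells (-0.06). S100A13, which takes part in the release of growth factors that lack a signal peptide, read 2187 in GLUT4 cells and 1844 in vector control cells (0.25), while its dimmer probe set read 44.9 in GLUT4 cells and 61.0 in vector control cells (-0.44). S100A7A, the close copy of S100A7, read 85.9 in GLUT4 cells and 85.3 in vector control cells (0.01). Because the sequences are so alike, the values of S100A7 and S100A7A are uncertain, as probes for either could detect the other.

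Of the 45 measured genes from S100A10 to S100A1 in their order on chromosome 1, 9 were members, 7 were other S100 genes and 29 were other genes, mostly of the cornified envelope. No direct neighbour of S100A9 or S100A4 was past 1.5-fold, and whether smaller differences run together along this order was not measured. S100A9 at -1.11 stood between PGLYRP4 (-0.17), a peptidoglycan recognition protein, and S100A12 (0.02), and S100A4 at -0.63 between S100A5 (0.21) and S100A3 (0.06), with S100A2 (0.35) next. Of the 29 other genes, 1 was more than 1.5-fold higher and none more than 1.5-fold lower, against 1.84% and 1.54% of all genes. The one past the threshold was LINC01527, a noncoding gene chosen here after its value was seen, which read 21.8 in GLUT4 cells and 13.6 in vector control cells (0.68), both below the median. Their median was -0.09, and 6 of 29 lay above the median of all probe sets on both arrays.

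**Figure D3:**
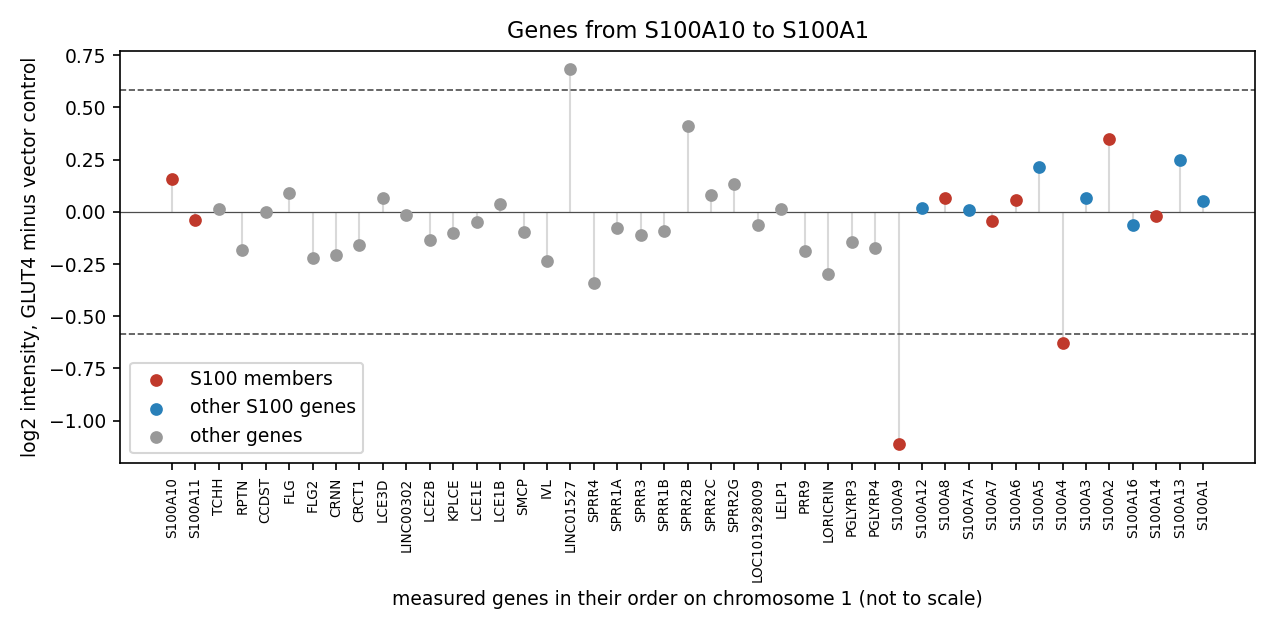
GLUT4 minus vector control in log2 intensity (vertical axis) for the 45 measured genes from S100A10 to S100A1, placed in their order on chromosome 1 and not to scale, with members in red, other S100 genes in blue, other genes in grey and dashed lines at 1.5-fold. The direct neighbours of S100A9 (-1.11) and S100A4 (-0.63) lie between -0.17 and 0.21.

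Genes of the cornified envelope and of the S100-fused proteins, in which an S100 domain is joined to a long repeat, gave mostly low signals. Of 37 listed, 18 were measured, which is too few to speak for the list, and 13 of these lay below the median of all probe sets on both arrays. None was past 1.5-fold, where 1.84% of all genes were higher and 1.54% lower, and the median was -0.09. IVL, FLG and LORICRIN, the markers of late keratinocyte differentiation, had differences of -0.24, 0.09 and -0.30.

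Receptors and targets of S100 proteins were inside 1.5-fold by main probe set, all 15 measured of 16, with a median of 0.06. Among all genes, 1.84% were past 1.5-fold on the higher side and 1.54% on the lower side. Of the receptors that released S100A8 and S100A9 engage, BSG (basigin) read 1733 in GLUT4 cells and 1382 in vector control cells (0.33). TLR4 read 20.2 in GLUT4 cells and 24.7 in vector control cells on its main probe set (-0.29), below the median with both constructs. Its 3 other probe sets were also below the median, at -0.20, -1.13 and -0.62. AGER, the receptor RAGE, read 39.2 in GLUT4 cells and 42.9 in vector control cells (-0.13), close to the median, and 30.7 in GLUT4 cells and 28.2 in vector control cells on the other probe set (0.12).

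Of 21 genes that induce S100A7, S100A8 and S100A9 or bind their promoters in keratinocytes and myeloid cells, all measured, 2 were more than 1.5-fold higher and none more than 1.5-fold lower. The shares of all genes were 1.84% and 1.54%. The inflammatory cytokine IL6 read 3776 in GLUT4 cells and 2239 in vector control cells (0.75), and TNF read 72.7 in GLUT4 cells and 27.5 in vector control cells (1.40). The TNF value in vector control cells lay below the median of that array, 39.7, and with an offset of 32 the TNF difference was 0.81. The median of the list was 0.02. Transcription factors of the list lay on both sides, all within 1.5-fold on their main probe sets, and those given here were named after their values were seen. CEBPB read 5292 in GLUT4 cells and 7121 in vector control cells (-0.43), and STAT3 read 1509 in GLUT4 cells and 1874 in vector control cells (-0.31). NFKBIZ, a nuclear cofactor of NF-kappaB, read 6276 in GLUT4 cells and 4388 in vector control cells (0.52), with 0.64 on its other probe set. CEBPD read 2648 in GLUT4 cells and 2259 in vector control cells (0.23), with 0.82 on its other probe set.

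Antimicrobial proteins of squamous epithelium, the class to which S100A7, S100A8 and S100A9 also belong, had 11 of 16 genes measured and none past 1.5-fold, with a median of 0.01 and a range from -0.39 to 0.18. SLPI, a secreted protease inhibitor also named after its value was seen, read 2291 in GLUT4 cells and 2805 in vector control cells (-0.29). RNASE7, a skin ribonuclease, read 146 in GLUT4 cells and 160 in vector control cells on its main probe set (-0.13). Its other probe sets were at -0.40 and -0.03. The low end of the range was LCN2, at 38.3 in GLUT4 cells and 50.2 in vector control cells, also named after its value was seen. S100A9 at -1.11 lay outside the range of this list.

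**Figure D4:**
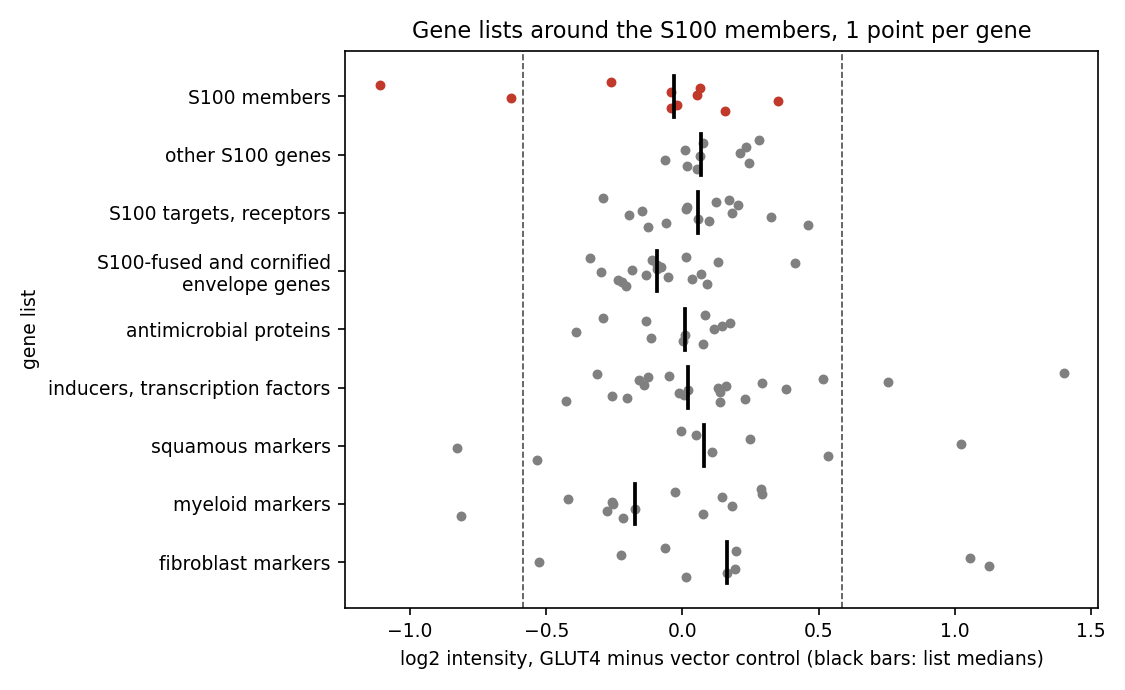
GLUT4 minus vector control in log2 intensity (horizontal axis) for each gene's main probe set in the S100 members (red) and 8 further gene lists (grey), with black bars at the list medians and dashed lines at 1.5-fold. The medians of the other S100 genes (0.07), the targets and receptors (0.06) and the antimicrobial proteins (0.01) lie near 0, with none of their genes past a dashed line, and S100A9 is the point farthest to the left.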

How the data were processed

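Total RNA was labelled with a kit that primes from the 3′ end and hybridized to Affymetrix Human Genome U133 Plus 2.0 arrays. The deposited values are intensities per probe set on a linear scale, which the authors had normalized between the arrays. The methods name GeneSpring with log2 values, and MAS5 is in the submitters' processing notes without a version. How these were applied together is not given in the sources at hand. The number of arrays, 1 per group, limits the precision. After a floor of 1, log2 values were taken and vector control was subtracted from GLUT4. A gene was called past 1.5-fold, the threshold of the methods. Probe sets were named by the platform annotation where it gave 1 gene (41097 of 54675), with symbols updated through RefSeq of GRCh38.p14, and genes with no such probe set were not analysed here. The procedure was tested on simulated data. All members were named, and of other lists the binding partners and up to 4 genes past 1.5-fold above the median intensity. Further genes, among them MYH9, EZR, CEBPB, STAT3, NFKBIZ, CEBPD, SLPI, RNASE7 and the markers within 1.5-fold, were added after their values were seen. The members and lists were chosen with earlier results of these data known. A comparison of the members' proteins was planned and not run. Alternatives were equal medians, quantile normalization, loess (fraction 0.3), an offset of 32, averaged probe sets, leaving out probe sets ending in x_at or s_at, dim probe sets left out, every probe set counted and a threshold of 2-fold. Python 3.11.15, numpy 2.4.6, pandas 2.3.3, statsmodels 0.14.6 and matplotlib 3.10.9 were used.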

Additional observations from a re-analysis of the deposited data

How the results depend on the processing

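The count of members more than 1.5-fold lower was 1 in place of 2 with an offset of 32, with a threshold of 2-fold and without probe sets ending in x_at or s_at. S100A9 remained in each case. S100A4 came to -0.51 with the offset, and it has no value without such probe sets, since its only probe set is of that kind. No alternative gave a member more than 1.5-fold higher. The 59 values of single members moved by less than 0.20, the SD of 1 probe set, under the scaling, offset and probe set alternatives, with S100A9 between -1.13 and -1.07 and S100A4 between -0.66 and -0.51. Part of these values could not move. Averaging leaves the 7 members with 1 probe set as they were. Leaving out x_at and s_at probe sets does the same where the main probe set is of neither kind. Both hold for S100A9. The sign of S100A14 and S100A8 changed under some of these alternatives, with S100A14 between -0.06 and 0.00 and S100A8 between -0.09 and 0.11. Without probe sets ending in x_at or s_at, 1 fibroblast marker in place of 2 was more than 1.5-fold higher and 0 squamous markers in place of 1 more than 1.5-fold lower. The remaining LUM probe set is within 1.5-fold, and EPCAM has no value there, since its only probe set is left out. S100A7 and S100A8, with signals below the median, are the members on which these arrays say least. No paired analysis was possible because each group had 1 array.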
